A study of Mus musculus with 9 samples.

Results

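Newborn cortex in which Sonic hedgehog (SHH) signalling was raised inside the cells, by an activated Smoothened, was compared with newborn cortex in which it was raised by added ligand. The members are genes. They were taken from both deposited tables, joined by gene identifier, and kept where the summed wild-type counts, with 5 added, differed by at most 0.1 log2 between the tables. Of 22268 genes in common, 16195 (72.7%) were kept, 12349 of these were expressed enough to be tested, and 3846 were not. Just inside the limit lay Gramd1a, with 17484 and 18739 wild-type counts in the tables, and just outside lay Gm42732, with 652 and 608.

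All groups were cortex at postnatal day 0 from mice of mixed C57BL/6J, 129S6 and CD1 background, with 3 libraries each. The SmoM2 group carried hGFAP-Cre and 1 conditional SmoM2 allele (SmoM2f/+). SmoM2 is a Smoothened that signals without ligand, and the human GFAP promoter drives Cre in the radial glia of the cortex, so their progeny carry the allele too. The ShhN IUE group received ShhN, the amino-terminal signalling part of SHH, by in utero electroporation (IUE), which reaches only some of the cells. No source used here gives the plasmid, its promoter or the day of electroporation, and no group was electroporated without ShhN. Electroporation itself therefore cannot be told apart from ShhN, nor can litter or batch from the group. Wild-type littermates are given as a reference. Nothing in the labels says that the libraries of a group came from separate animals, so the p-values cover only the spread among these libraries, which may be partly technical.

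SHH binds its receptor Patched and thereby releases Smoothened. Smoothened, acting in the primary cilium, turns the GLI factors from repressors (mainly GLI3) into activators (GLI2 and then GLI1), and the activators induce Gli1, Ptch1 and Hhip, the last pair being brakes on the ligand. SmoM2 acts below the ligand and its receptor in the cells that carry it, whereas secreted ShhN can also act on neighbouring cells. In the developing cortex SHH favours progenitors that make olfactory bulb interneurons and oligodendrocytes over those that make pyramidal neurons.

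Totals were 23625702 to 26923127 counts in the SmoM2 libraries, 15376071 to 19604672 in ShhN IUE and 18610507 to 21694348 in wild type, so the SmoM2 libraries were all deeper. Levels below are TMM-scaled counts per 1000000 counts of the tested genes (CPM), and a difference is log2 SmoM2 minus ShhN IUE with its SE, from 1 edgeR fit over all tested genes. The spread within a group, as biological coefficient of variation, was 10.8% in SmoM2, 21.9% in ShhN IUE and 22% in wild type, so SmoM2 was the tightest group. ShhN IUE libraries 2 and 3 were the farthest apart of any pair in these groups (root mean square log2 distance 0.754), near the 0.684 to 0.767 between groups. The cortical label was checked by Emx1, a dorsal forebrain factor, at 32.6 to 58.8 CPM in the 6 libraries, and by Fezf2, a factor of deep-layer neurons, at 75.1 to 116 CPM. Between the groups 1043 genes were higher in SmoM2 (8.45% of those tested) and 997 lower (8.07%), together 16.5%, with a median log2 difference of -0.01 over all tested genes. Of the 2040 called genes 497 differed by more than 2-fold.

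Shh itself was almost absent from SmoM2 cortex and varied widely among the ShhN IUE libraries. Its level was 0.279, 0.964 and 0.523 CPM in SmoM2 libraries 1, 2 and 3, 3.99, 4.73 and 43.2 CPM in ShhN IUE libraries 1, 2 and 3, and 2.80, 4.24 and 2.56 CPM in wild type. ShhN IUE library 3 stood far above the rest, and the SmoM2 libraries lay below all others. Shh (chromosome 5, 28456815 to 28467256) was lower in SmoM2 by a log2 difference of -4.87 ± 0.95 (SE, n = 3 per group, edgeR adjusted p = 0.00799), or -2.89 without ShhN IUE library 3. Smo, which encodes Smoothened, was at 128, 109 and 122 CPM in SmoM2, 54.5, 63.5 and 74.8 CPM in ShhN IUE and 31.1, 39.4 and 29.2 CPM in wild type. The 3 groups did not overlap, and Smo (chromosome 6, 29735503 to 29761365) was 1.86-fold higher in SmoM2 than in ShhN IUE (log2 difference 0.90 ± 0.14, adjusted p = 0.00352). Counts of both genes may include reads of the introduced sequences, which was not tested.

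The direct targets Gli1, Ptch1 and Hhip lay above wild type in every library of both groups, and no difference between the groups passed the test. Gli1, the transcription factor most used as a readout of the pathway, was at 72.0, 64.7 and 75.7 CPM in SmoM2, 40.1, 42.4 and 104 CPM in ShhN IUE and 8.47, 13.7 and 11.7 CPM in wild type. The SmoM2 values lay close together between ShhN IUE libraries 1 and 2 below and library 3 above. Its difference was 0.19 ± 0.32, with a 95% interval of -0.51 to 0.88 (adjusted p = 0.72). Ptch1, which encodes the receptor, was at 413, 455 and 445 CPM in SmoM2 and at 205, 176 and 457 CPM in ShhN IUE. Hhip, which encodes a membrane protein that binds and sequesters SHH, was at 26.1, 28.3 and 27.8 CPM against 9.39, 7.54 and 37.6 CPM. For both, ShhN IUE library 3 alone reached or passed the SmoM2 level, as it did for Gli1. Their differences were 0.65 ± 0.31 (interval -0.03 to 1.33, adjusted p = 0.173) and 0.60 ± 0.49 (-0.48 to 1.67, adjusted p = 0.429). Without ShhN IUE library 1 or 2 the difference of Ptch1 was 0.48 or 0.41 and did not pass (edgeR adjusted p = 0.405 and 0.379). Library 3 was the highest of its group for all 3 genes, so leaving it out raises their differences by choice. Without it the differences of Gli1, Ptch1 and Hhip were 0.78, 1.20 and 1.69. All 3 were then called (adjusted p = 0.0146, 0.00305 and 0.00215), which describes the weight of library 3 and is no separate support. The same held for Nkx2-2, a homeobox gene of ventral progenitors (0.49 ± 0.37 with all libraries, 1.10 without library 3). Ccnd1, Ccnd2 and Mycn, growth genes induced by the pathway in other tissues, differed by 0.21, -0.15 and 0.40, and none passed. Against wild type Ccnd1 stood at 0.65 ± 0.16 in SmoM2 and 0.44 ± 0.16 in ShhN IUE, and Ccnd2 at 1.52 ± 0.13 and 1.67 ± 0.13. Mycn stood at -0.21 ± 0.28 and -0.60 ± 0.29 in the same groups.

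Several genes that transmit the signal were lower in SmoM2. Gli2, the main GLI activator, was at 21.7, 17.1 and 22.5 CPM in SmoM2, 31.2, 38.5 and 42.7 CPM in ShhN IUE and 9.86, 11.6 and 9.10 CPM in wild type. The groups did not overlap and SmoM2 was intermediate. Gli2 was lower in SmoM2 than in ShhN IUE by a difference of -0.87 ± 0.17 (adjusted p = 0.00713). Gli3, the main repressor, was at 22.4, 19.2 and 24.5 CPM against 34.2, 37.6 and 31.4 CPM. Its difference of -0.65 ± 0.14 (adjusted p = 0.0131) lost the call without SmoM2 library 2 or ShhN IUE library 1. Kif7, a ciliary kinesin that holds GLI proteins in check, was at 18.5, 16.5 and 20.1 CPM against 28.2, 31.6 and 34.3 CPM, with 18.3, 17.2 and 19.9 CPM in wild type. It was lower, with a log2 difference of -0.77 ± 0.13 (adjusted p = 0.00481), and its SmoM2 values lay at the wild-type level. Adcy6, an adenylyl cyclase that feeds the inhibitory arm through protein kinase A, was lower, with a log2 difference of -0.48 ± 0.08 (adjusted p = 0.00468). Of 15 pathway components tested 5 were lower (Shh, Gli3, Kif7, Adcy6 and Evc2, a cilium base protein) and only Smo was higher, with a median of -0.20. Shh and Smo, whose counts may include reads of the introduced sequences, are among these calls. Without SmoM2 library 2 or ShhN IUE library 1 the number lower was 3. Of 17 targets and feedback genes 1 was higher (Zfp521) and 2 were lower (Gli2 and Sfrp1), with a median of 0.19. Without ShhN IUE library 3 these were 5 and 1, and Zfp521 lost its call without any 1 of the SmoM2 libraries or ShhN IUE library 1 or 2. Cdon among the targets and 7 components, Sufu and Gnas among them, did not agree between the tables and were not compared.

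**Figure D1:**
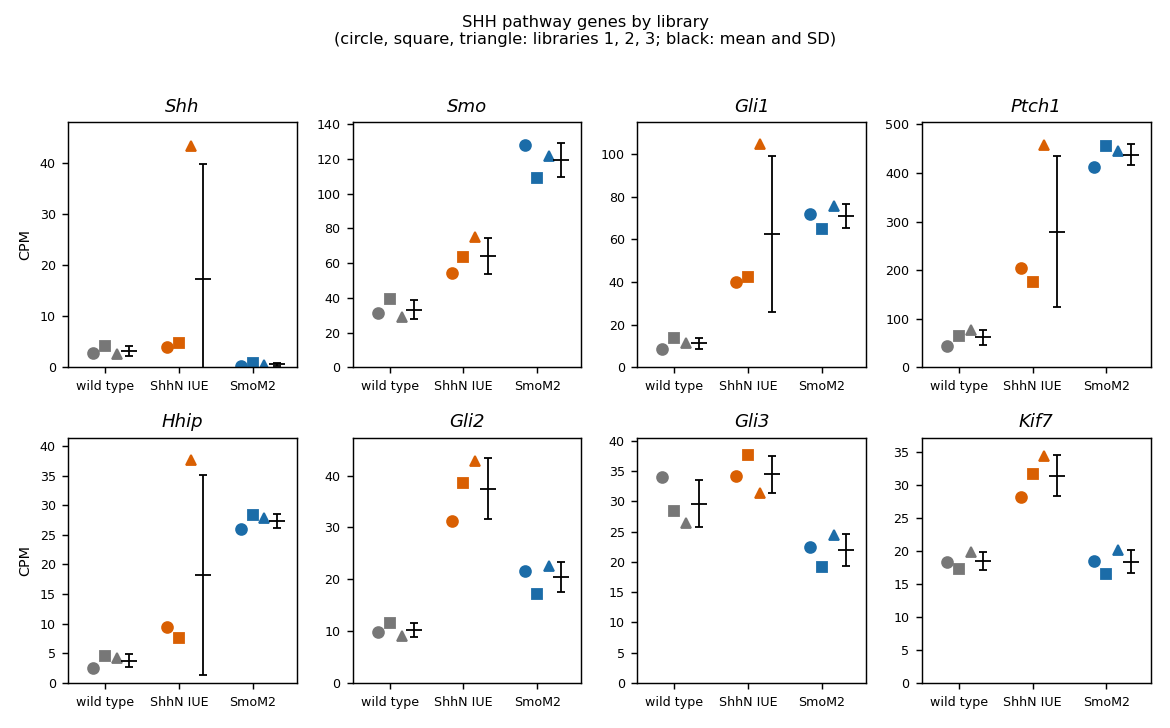
Levels of 8 SHH pathway genes in each library, in CPM on linear axes, for wild type, ShhN IUE and SmoM2, with markers for libraries 1, 2 and 3 and black bars for the mean and SD (n = 3, cut at 0). ShhN IUE library 3 (triangle) is apart from libraries 1 and 2 for Shh, Gli1, Ptch1 and Hhip, whereas for Gli2, Gli3 and Kif7 the SmoM2 libraries lie below all ShhN IUE libraries.

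ShhN IUE library 3 also differed from libraries 1 and 2 of its group in RNA of meningeal and fibroblast markers. The summed level of 20 markers of meninges and fibroblasts was 138 and 142 CPM in ShhN IUE libraries 1 and 2 and 1695 CPM in library 3. It was 1068, 550 and 810 CPM in SmoM2 and 144, 1518 and 552 CPM in wild type. Col1a1, a fibroblast collagen, followed this pattern with 5.71, 25.0 and 360 CPM in ShhN IUE, and Aldh1a2, a meningeal retinoic acid enzyme, was at 0 CPM in ShhN IUE libraries 1 and 2. Of the 20 markers 0 were called in either direction by edgeR with all libraries (median 0.49), 1 in each direction had an unadjusted p under 0.05, and 0 were called by DESeq2 or limma-voom. Of the same markers 12 were higher in SmoM2 without ShhN IUE library 3, beside 1025 of all 12616 genes tested in that fit. As library 3 alone held the high sum in its group, this count follows from leaving it out and is a description only. The part of this tissue in the values of library 3 was not tested. In bulk cortex fewer cells of a type and less RNA per cell cannot be told apart, which holds for every result here.

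The lists of cell types and pathways differed in how many members moved. Lists with at least 4 members lower were hypoxia and glycolysis (9 of 18 tested), pyramidal intermediate progenitors (6 of 13), multipotent intermediate progenitors and SHH pathway components (5 of 15 each), ependymal and choroid plexus cells (4 of 10), the Notch pathway and upper-layer neurons (4 of 15 each), medial ganglionic eminence interneurons (4 of 16), immediate early genes (4 of 18), cholesterol synthesis (4 of 20) and the olfactory bulb interneuron lineage (4 of 22). No list had more than 4 members higher. In the lists of hypoxia and glycolysis, pyramidal progenitors, multipotent progenitors and ependymal cells 0 members were higher by edgeR, with 0, 0, 5 and 1 at an unadjusted p under 0.05, 0, 0, 2 and 0 by DESeq2 and 0, 0, 1 and 0 by limma-voom. These shares stand beside 8.07% lower and 8.45% higher among all tested genes, and lists of this length were not tested as sets.

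**Figure D2:**
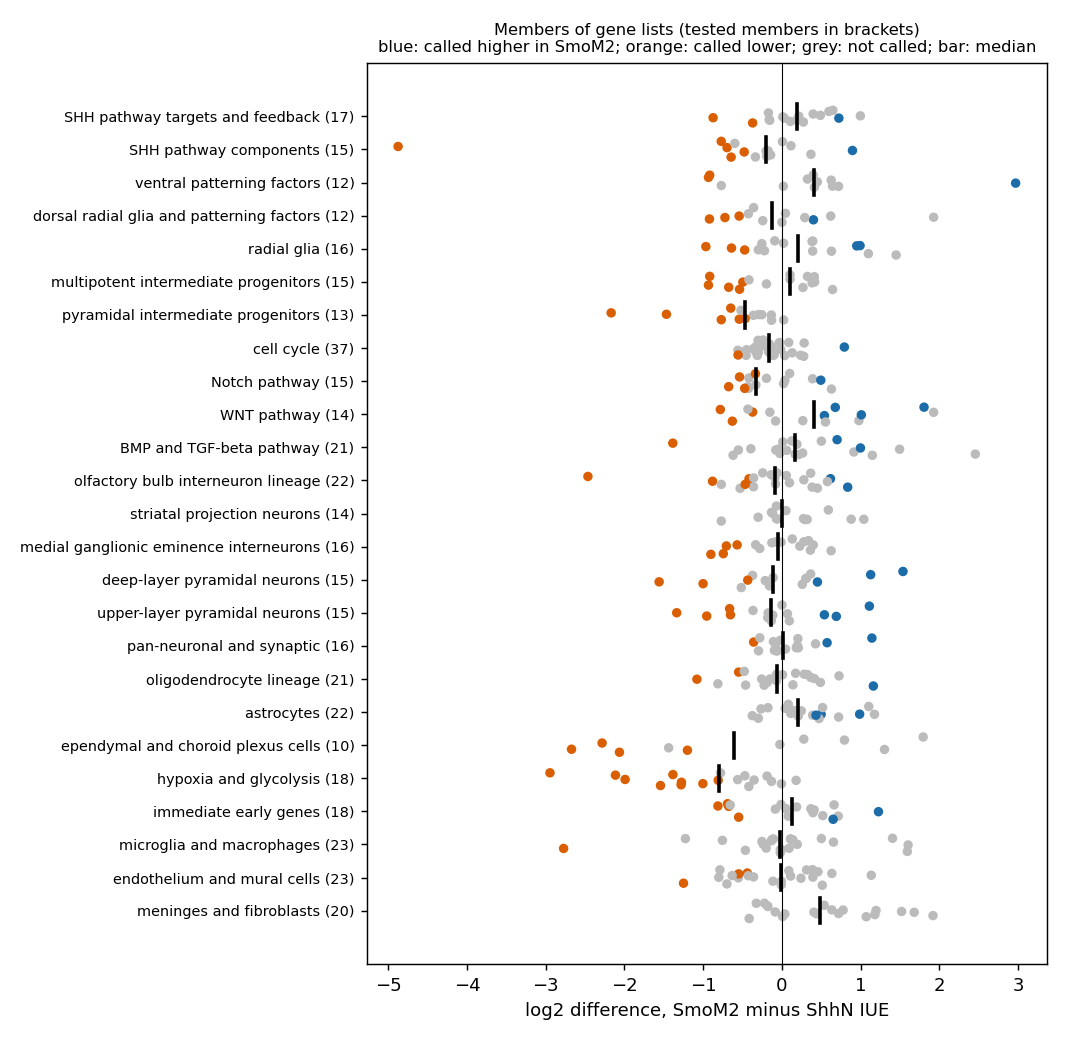
Log2 difference, SmoM2 minus ShhN IUE, of each tested member of 25 gene lists, with the number tested in brackets, the median as a black bar, and called members in blue (higher in SmoM2) or orange (lower). The members of hypoxia and glycolysis and of pyramidal intermediate progenitors lie mostly left of 0 (medians -0.79 and -0.47), and those of striatal projection neurons spread around 0 (median -0.00).

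Of 13 tested genes of the progenitors that make pyramidal neurons 6 were lower in SmoM2 cortex and 0 higher, with a median of -0.47. Eomes (Tbr2), the defining transcription factor of these intermediate progenitors, was at 6.08, 4.76 and 8.83 CPM in SmoM2, 22.7, 51.1 and 14.9 CPM in ShhN IUE and 20.8, 14.2 and 17.4 CPM in wild type. The SmoM2 libraries lay below all others, and ShhN IUE ranged from the wild-type level to well above it, highest in library 2. Eomes (chromosome 9, 118478212 to 118486132) was 4.50-fold lower in SmoM2 than in ShhN IUE (log2 difference -2.17 ± 0.41, adjusted p = 0.00703), and the difference was -1.52 without ShhN IUE library 2. Against wild type it stood at -1.41 ± 0.41 in SmoM2 and 0.76 ± 0.39 in ShhN IUE. Neurog2, the proneural factor that acts just above Eomes, was at 7.70, 6.75 and 10.2 CPM in SmoM2, 22.6, 30.1 and 15.6 CPM in ShhN IUE and 8.23, 11.4 and 9.60 CPM in wild type. Here SmoM2 overlapped wild type and ShhN IUE lay above both. Neurog2 was lower in SmoM2, with a log2 difference of -1.47 ± 0.26 (adjusted p = 0.00497). Rcor2, a corepressor of neural progenitors, Slc17a6, a vesicular glutamate transporter, and Sstr2, a somatostatin receptor, were lower as well, with log2 differences of -0.77, -0.47 and -0.65. Without single SmoM2 libraries, or ShhN IUE library 1 or 2, the number lower was 2 or 3, and with the replicate number as a block it was 3, whereas Eomes and Neurog2 kept their calls in each of these fits.

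A gene of ventral-type progenitors was lower too. Gsx2, a homeobox gene of the lateral ganglionic eminence, was at 7.70, 7.07 and 8.25 CPM in SmoM2, 14.4, 13.5 and 15.6 CPM in ShhN IUE and 1.86, 2.73 and 3.31 CPM in wild type. The 3 groups did not overlap, with SmoM2 in between. Gsx2 was lower in SmoM2 than in ShhN IUE, with a log2 difference of -0.92 ± 0.21 (adjusted p = 0.0147), a call lost without SmoM2 library 1 or 2 or ShhN IUE library 1. Other members of the list of multipotent progenitors were not called: Egfr, Olig1 and Olig2, which mark progenitors of the olfactory bulb and oligodendrocyte lineages, stood at 0.42 ± 0.13, 0.32 ± 0.11 and 0.41 ± 0.16 and did not pass (adjusted p = 0.058, 0.0678 and 0.0972). In all, 5 of 15 multipotent progenitor genes were lower and 0 higher (median 0.10). The number lower was 0 without SmoM2 library 2 or ShhN IUE library 1, and 2 without SmoM2 library 1 or 3. Without ShhN IUE library 3, 3 were lower and 3 higher.

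Of 16 radial glia genes 2 were higher (Ednrb and Pla2g7), 3 were lower (Cdh4, Nes and Notch1) and 11 did not pass, with a median of 0.20. The number higher was 5 with ShhN IUE library 3 left out and 1 without SmoM2 library 1, 2 or 3 or ShhN IUE library 1, and the number lower was 1 without SmoM2 library 1 or 2. Cdh4, a cadherin, was at 96.7, 94.7 and 101 CPM in SmoM2, 234, 202 and 135 CPM in ShhN IUE and 326, 246 and 431 CPM in wild type. The groups did not overlap and SmoM2 was lowest, with a difference of -0.97 (adjusted p = 0.0138), a call lost without SmoM2 library 1 or 2 or ShhN IUE library 1. Nes, the intermediate filament of neural progenitors, was at 191, 198 and 241 CPM in SmoM2 and at 299, 382 and 302 CPM in ShhN IUE, without overlap. It was lower, with a log2 difference of -0.64 ± 0.13 (adjusted p = 0.00899). Notch1 and Notch2, receptors that keep progenitors undifferentiated, were lower, with log2 differences of -0.47 ± 0.11 and -0.68 ± 0.16 (adjusted p = 0.0164 and 0.0197), calls lost without SmoM2 library 2 and 1 other SmoM2 library each. Of 15 Notch pathway genes 4 were lower and 1, Rbpj, was higher (median -0.33). Without SmoM2 library 2 the number lower was 0, and without SmoM2 library 1 or 3 or ShhN IUE library 1 it was 2. Rbpj lost its call without any 1 of the 6 libraries, and with the replicate number as a block. Ednrb, an endothelin receptor of radial glia and astrocytes, went the other way, with 222, 218 and 192 CPM in SmoM2 and 134, 114 and 78.3 CPM in ShhN IUE. It lay above all ShhN IUE and wild-type libraries (wild type 88.9, 115 and 100.3 CPM), with a difference of 0.95 ± 0.17 (adjusted p = 0.0059). Edn1, which encodes its ligand endothelin 1, was lower and is described with the hypoxia genes. Pla2g7, a lipase of radial glia, was higher, with a log2 difference of 0.99 ± 0.23 (adjusted p = 0.0165), lost when SmoM2 library 1, 2 or 3 or ShhN IUE library 1 was left out. Of 12 dorsal factors 3 were lower, among them Emx1 (-0.54 ± 0.16) and Emx2 (-0.72 ± 0.19), and Id4 was higher. The number lower was 0 without SmoM2 library 2 or ShhN IUE library 2 and 1 without SmoM2 library 1 or 3 or ShhN IUE library 1, and Id4 lost its call without any 1 of these. Of 37 cell cycle genes 1 was higher (Ccne2) and 1 lower (Mcm6, a helicase subunit of DNA replication), with a median of -0.17. SmoM2 lay below ShhN IUE for 30 of them and above for 7. The groups did not overlap for 10 with SmoM2 below and 2 with SmoM2 above, beside 20.6% and 20.4% of all tested genes. Mki67, the usual proliferation marker, differed by -0.19 with an interval of -0.53 to 0.15 (adjusted p = 0.415).

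Several genes of multiciliated cells were lower in SmoM2, with ShhN IUE library 3 closest to it. Ependymal cells, which line the ventricles with motile cilia, arise from radial glia through Gmnc and Mcidas, which switch on Ccno and Foxj1. Foxj1, the master factor of motile cilia, was at 21.7, 19.5 and 16.6 CPM in SmoM2, 46.8, 63.5 and 22.4 CPM in ShhN IUE and 5.90, 9.43 and 6.12 CPM in wild type. ShhN IUE library 3 lay just above the SmoM2 range. Foxj1 (chromosome 11, 116330704 to 116335399) was lower in SmoM2, with a log2 difference of -1.20 ± 0.32 (adjusted p = 0.0284), and against wild type it stood at 1.42 ± 0.34 in SmoM2 and 2.62 ± 0.34 in ShhN IUE. Rsph1, a radial spoke protein of motile cilia, was at 2.57, 2.51 and 2.03 CPM against 12, 12.5 and 5.22 CPM. Its values did not overlap and it was lower, with a log2 difference of -2.06 ± 0.38 (adjusted p = 0.00588). Ccdc67 (Deup1), which builds the many basal bodies of these cells, was at 1.34, 1.09 and 0.523 CPM against 12.8, 9.91 and 3.04 CPM. It was lower, with a log2 difference of -3.11 ± 0.58 (adjusted p = 0.00637). Mcidas and Ccno were lower, with log2 differences of -2.67 and -2.28 (adjusted p = 0.0154 and 0.0118). The groups overlapped for Mcidas and not for Ccno. Of 10 tested ependymal and choroid plexus genes 4 were lower and 0 higher (median -0.61), though 4 that did not pass had SmoM2 above, by up to 1.79. The number lower was 1 without SmoM2 library 3 or ShhN IUE library 1, and 2 without SmoM2 library 1 or 2. Foxj1 lost its call without any 1 of the SmoM2 libraries or ShhN IUE library 1 or 2, whereas Rsph1 and Ccdc67 kept theirs.

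**Figure D3:**
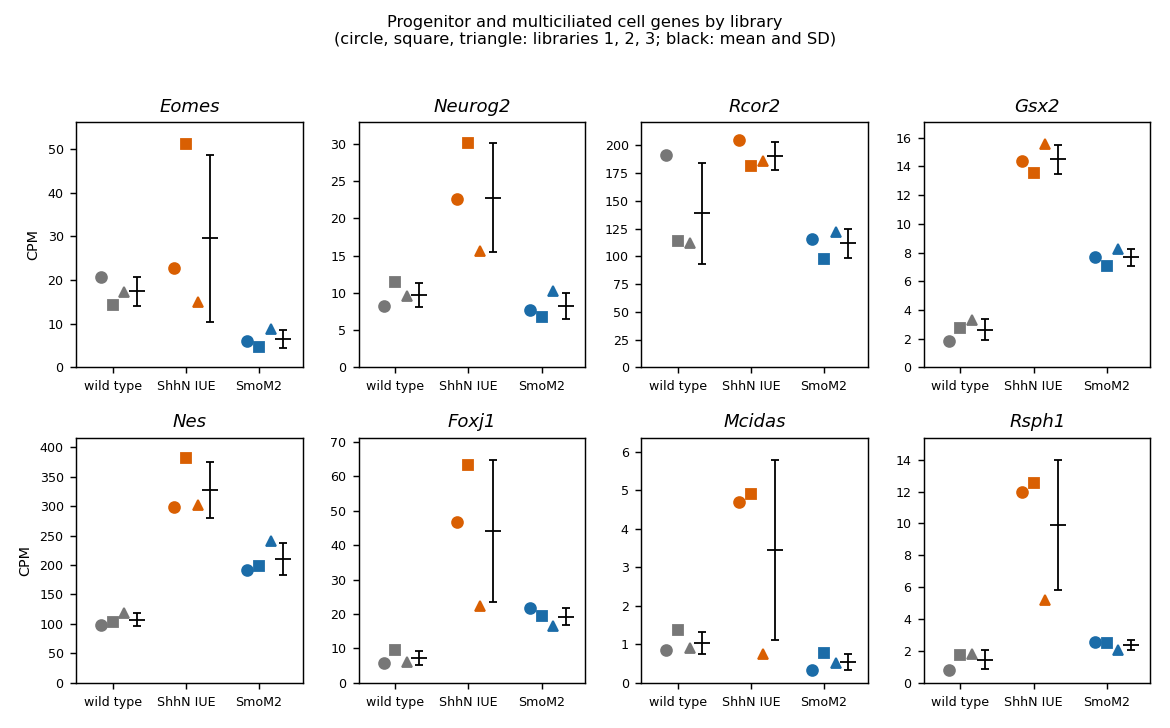
Levels of 8 progenitor and multiciliated cell genes in each library, in CPM on linear axes, with markers for libraries 1, 2 and 3 and black bars for the mean and SD (n = 3). Eomes is lower in every SmoM2 library than in any other library, Gsx2 falls into 3 separate levels, and Mcidas is high in ShhN IUE libraries 1 and 2 only.

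Genes induced by low oxygen formed the list with the largest share lower in SmoM2. When oxygen falls, hypoxia-inducible factor (HIF) is stabilised, binds DNA at ACGTG or GCGTG motifs and induces vessel growth factors, glucose uptake and glycolysis. Only ACGTG was searched for here. Of 18 tested hypoxia and glycolysis genes 9 were lower and 0 higher, with a median of -0.79, and 12 did not overlap between groups, all with SmoM2 below (41.0% of all tested genes did not overlap, 20.6% with SmoM2 below and 20.4% above). Aldoa, Gapdh, Tpi1 and 5 more of the list did not agree between the tables and were not compared. In 6 of the 9 lower genes the 150 bases before the gene start of RefSeq held the ACGTG motif. These are printed 5′ to 3′ on the strand of the gene, from RefSeq on GRCm38.p6, with ACGTG or its reverse complement CACGT in capitals. They are shown because they belong to the genes that moved together. The windows are chr7:46845654-46845803 (+ strand) for Ldha, chrX:106186950-106187099 (+) for Pgk1, chr4:119108595-119108744 (+) for Slc2a1, chr6:82774455-82774604 (- strand) for Hk2, chr8:45999851-46000000 (-) for Ankrd37 and chr10:59323146-59323295 (+) for P4ha1.
Ldha: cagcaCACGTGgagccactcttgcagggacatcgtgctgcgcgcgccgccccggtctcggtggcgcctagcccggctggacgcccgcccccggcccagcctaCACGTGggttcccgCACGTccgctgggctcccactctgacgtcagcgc
Pgk1: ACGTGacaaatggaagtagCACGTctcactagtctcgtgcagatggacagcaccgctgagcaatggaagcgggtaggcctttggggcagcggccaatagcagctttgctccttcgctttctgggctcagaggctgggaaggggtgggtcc
Slc2a1: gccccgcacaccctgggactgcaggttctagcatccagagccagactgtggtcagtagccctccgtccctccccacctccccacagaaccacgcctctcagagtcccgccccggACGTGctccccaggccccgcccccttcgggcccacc
Hk2: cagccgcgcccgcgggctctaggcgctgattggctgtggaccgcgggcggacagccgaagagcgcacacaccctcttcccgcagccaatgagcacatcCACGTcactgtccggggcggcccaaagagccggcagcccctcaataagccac
Ankrd37: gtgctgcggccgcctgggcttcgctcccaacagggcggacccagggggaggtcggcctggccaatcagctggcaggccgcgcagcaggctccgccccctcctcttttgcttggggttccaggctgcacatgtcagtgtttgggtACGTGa
P4ha1: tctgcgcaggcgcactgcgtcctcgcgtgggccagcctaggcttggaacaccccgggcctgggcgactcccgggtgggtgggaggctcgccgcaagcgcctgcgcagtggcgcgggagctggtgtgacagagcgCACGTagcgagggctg
Ldha held 5 matches, of which 4 came from 2 copies of the palindrome CACGTG, counted on both strands. Pgk1 held 2 and the rest 1 each. The windows of Adm, Vegfa and Pfkl held none. Among the list members that were not called, 1 of 6 with a promoter in the table held the motif (Pfkfb3), and 3014 (11.2%) of all 27025 promoters did. The deposited coordinates start some of these genes elsewhere. By them the windows of Ldha and Pfkl lie wholly inside the gene, as do 34 bases of the Slc2a1 window and 17 of the Ankrd37 window, and only Hk2, Pgk1 and P4ha1, 3 of the 9, have a match before the start. A match describes the letters and is not evidence of binding.

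Adm, which encodes the vasodilator adrenomedullin, had the largest difference of these genes. It was at 1.56, 1.29 and 1.45 CPM in SmoM2, 9.86, 6.64 and 16.9 CPM in ShhN IUE and 2.87, 2.12 and 1.99 CPM in wild type. Every ShhN IUE library lay above and every SmoM2 library below the wild-type range. Adm (chromosome 7, 110627661 to 110629820) was 7.70-fold lower in SmoM2 than in ShhN IUE (-2.95 ± 0.35, adjusted p = 0.000868), and it was called in every alternative analysis. Vegfa, the vascular endothelial growth factor, was at 75.5, 76.6 and 76.6 CPM in SmoM2, 310.1, 158 and 441 CPM in ShhN IUE and 110.3, 87.1 and 77.6 CPM in wild type. The SmoM2 libraries were within 2 CPM of each other, just under wild type, and the ShhN IUE libraries varied most. Vegfa was lower, with a log2 difference of -1.99 ± 0.29 (adjusted p = 0.00233). Against wild type it stood at -0.27 ± 0.28 in SmoM2 and 1.73 ± 0.29 in ShhN IUE.

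Glucose metabolism genes had the same order of libraries. Hk2, the hexokinase that traps glucose, was at 6.92, 6.04 and 6.85 CPM in SmoM2, 24.0, 12.7 and 49.3 CPM in ShhN IUE and 5.83, 5.67 and 6.54 CPM in wild type. ShhN IUE library 3 was highest and library 2 lowest of its group, as for Vegfa and Adm. Hk2 was lower, with a log2 difference of -2.11 ± 0.39 (adjusted p = 0.00601), or -1.48 without ShhN IUE library 3. Slc2a1, the glucose transporter GLUT1, and Pfkl, a phosphofructokinase, were lower, with log2 differences of -1.38 ± 0.31 and -1.28 ± 0.22. Ldha, lactate dehydrogenase A, and Pgk1, phosphoglycerate kinase, were lower, with log2 differences of -1.0 and -0.81, and for each ShhN IUE library 2 lay within the wild-type range. Ankrd37, a small HIF target, and P4ha1, a collagen prolyl hydroxylase, were lower, with log2 differences of -1.54 and -1.28. Of the members that did not pass, Egln3, an oxygen sensor, and Slc2a3 stood at -0.78 and -0.47 (adjusted p = 0.0806 and 0.0942) and Eno1 at -0.01. The number lower was 5 without SmoM2 library 2, 4 without SmoM2 library 3, 9 without ShhN IUE library 3 and 14 when genes were not restricted to agreeing wild-type counts.

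Stress and vessel genes outside the list differed as well. Ddit4 (REDD1), an inhibitor of mTOR induced by low oxygen, was at 72.6, 48.1 and 62.0 CPM in SmoM2, 264, 132 and 494 CPM in ShhN IUE and 53.1, 75.5 and 61.8 CPM in wild type. SmoM2 overlapped wild type, and Ddit4 was lower than in ShhN IUE, with a log2 difference of -2.28 ± 0.38 (adjusted p = 0.00392). Edn1 was at 1.28, 1.48 and 0.697 CPM against 10.1, 2.55 and 20.6 CPM, lower, with a log2 difference of -3.26 ± 0.66 (adjusted p = 0.00938) and by -2.46 without ShhN IUE library 3. Flt1, a VEGF receptor of endothelium, was at 42.7, 44.9 and 39.0 CPM against 101, 57.1 and 143 CPM, lower, with a log2 difference of -1.25 ± 0.27 (adjusted p = 0.0131), a call lost without SmoM2 library 3. Aplnr, the apelin receptor of growing vessels, went the other way: it was at 37.2, 31.4 and 35.7 CPM in SmoM2, 5.64, 10.4 and 9.12 CPM in ShhN IUE and 25.2, 67.0 and 36.4 CPM in wild type, higher in SmoM2, with a log2 difference of 2.06 ± 0.34 (adjusted p = 0.00362). Of 23 endothelial and mural cell markers 3 were lower and 0 higher (2 by DESeq2, 1 by limma-voom and 4 at an unadjusted p under 0.05), with a median of -0.01. Without SmoM2 library 3 the number lower was 0, and without SmoM2 library 2 or ShhN IUE library 1 it was 1. Their summed level was 788 to 866 CPM in SmoM2 and 710.4 to 1194 CPM in ShhN IUE, highest in library 3, and its part in these differences was not tested.

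**Figure D4:**
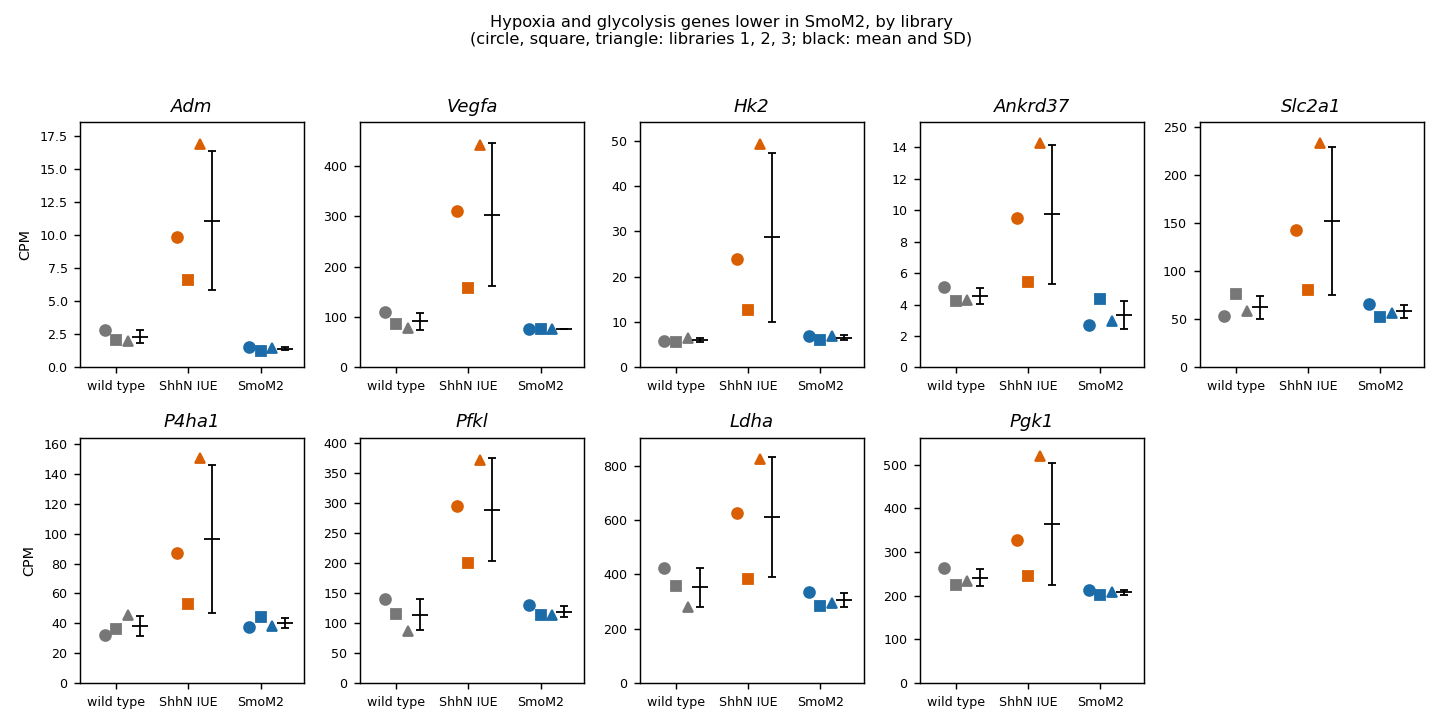
Levels of the 9 hypoxia and glycolysis genes called lower in SmoM2, by library, in CPM on linear axes, with markers for libraries 1, 2 and 3 and black bars for the mean and SD (n = 3). For each gene ShhN IUE library 3 (triangle) is highest and library 2 (square) is the lowest ShhN IUE library, while the SmoM2 libraries lie close together near wild type.

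Among genes higher in SmoM2, several were near their wild-type level there and under it in ShhN IUE. Nefl, a neurofilament subunit, was at 121, 107 and 96.0 CPM in SmoM2, 50.01, 53.5 and 43.6 CPM in ShhN IUE and 134, 111 and 98.0 CPM in wild type. SmoM2 overlapped wild type and ShhN IUE lay below both. Nefl was 2.21-fold higher in SmoM2 (1.14 ± 0.14, adjusted p = 0.00096). Egr1, an activity-induced transcription factor, showed the same order with 30.9, 30.8 and 37.7 CPM, 12.3, 13.3 and 17.0 CPM, and 38.8, 34.4 and 33.0 CPM in SmoM2, ShhN IUE and wild type. It was higher, with a log2 difference of 1.23 ± 0.15 (adjusted p = 0.00106). Foxo1, a forkhead factor of pyramidal neurons, was at 56.5, 53.9 and 56.6 CPM, 19.0, 21.4 and 36.3 CPM, and 56.5, 50.7 and 49.8 CPM in the same groups. It was higher, with a log2 difference of 1.13 ± 0.20 (adjusted p = 0.00525). Lhfpl3, a tetraspan membrane protein of oligodendrocyte precursors, was at 49.7, 55.9 and 41.8 CPM, 22.8, 23.5 and 19.6 CPM, and 43.6, 48.2 and 36.5 CPM. It was higher, with a log2 difference of 1.16 ± 0.15 (adjusted p = 0.00109), while the lineage genes Pdgfra and Sox10 differed by 0.14 and -0.07 and did not pass (intervals -0.11 to 0.38 and -0.50 to 0.36).

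Other immediate early genes differed in both directions. Jun, a subunit of the AP-1 factor, was at 91.5, 70.9 and 85.5 CPM in SmoM2 and 138, 129 and 169 CPM in ShhN IUE, lower, with a log2 difference of -0.81 ± 0.12 (adjusted p = 0.00282). Fosl2, its partner, was higher, with a log2 difference of 0.65 ± 0.12 (adjusted p = 0.00699). Of 18 genes 2 were higher (Egr1 and Fosl2), 4 were lower (Jun, Btg2, Dusp1 and Cyr61) and 12 did not pass, with a median of 0.13. Without any 1 of the SmoM2 libraries or ShhN IUE library 3 only Jun remained lower, and with ShhN IUE library 1 left out 2 were lower. The number higher was 4 without ShhN IUE library 3.

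Some secreted regulators were higher in SmoM2. Fst, which encodes the activin inhibitor follistatin, was at 87.8, 89.3 and 71.4 CPM in SmoM2, 41.2, 34.4 and 48.9 CPM in ShhN IUE and 27.3, 15.7 and 14.6 CPM in wild type. The groups did not overlap. Fst was higher, with a log2 difference of 1.00 ± 0.22 (adjusted p = 0.0132), a call lost without SmoM2 library 2, and Nog, a BMP inhibitor, by 0.70 ± 0.17 (adjusted p = 0.0202), lost without SmoM2 library 1 or 3 or ShhN IUE library 1. Of 21 BMP and TGF-beta pathway genes these were the 2 higher, and Smad6, a feedback inhibitor, was the 1 lower (-1.39 ± 0.31), a call lost without SmoM2 library 1 or 2. With ShhN IUE library 3 left out 5 were higher and 2 lower. Rspo2, an amplifier of WNT signals, was at 22.7, 17.6 and 19.4 CPM against 9.23, 9.18 and 11.3 CPM, higher, with a log2 difference of 1.01 ± 0.20 (adjusted p = 0.00938). Znrf3, which removes WNT receptors, was higher, with a log2 difference of 0.68 ± 0.14, and Wnt7b, a ligand made by cortical neurons, was lower, with a log2 difference of -0.78 ± 0.17. Of 14 WNT pathway genes 4 were higher and 3 lower. The number higher was 2 without any 1 of the SmoM2 libraries or ShhN IUE library 1 or 2, and the number lower was 0 without SmoM2 library 2 or 3 or ShhN IUE library 1. Among 22 astrocyte genes Aqp4, a water channel, Hepacam, an adhesion protein, and Slc6a11, a GABA transporter, were higher (0.99, 0.50 and 0.43) and 0 were lower (0 by DESeq2 or limma-voom, 1 at an unadjusted p under 0.05), with a median of 0.21. The number higher was 1 without any 1 of the SmoM2 libraries or ShhN IUE library 1 or 2, and 7 without ShhN IUE library 3. Gfap differed by 0.16 ± 0.33 and did not pass.

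**Figure D5:**
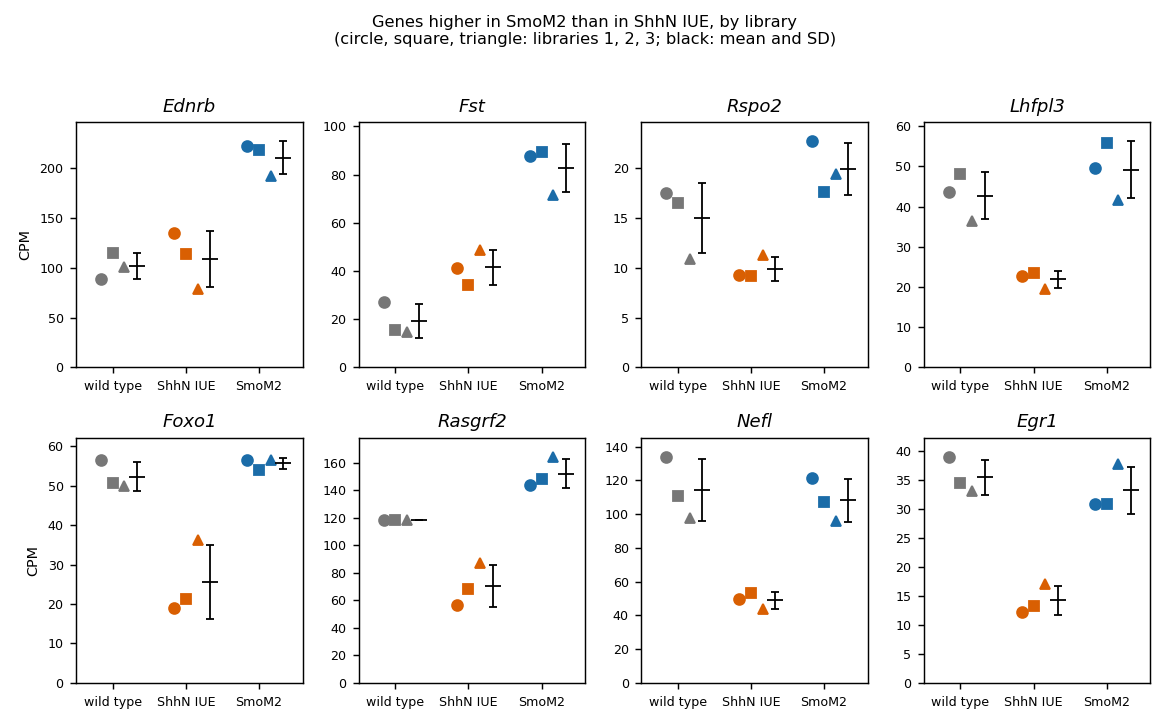
Levels of 8 genes higher in SmoM2 than in ShhN IUE, by library, in CPM on linear axes, with markers for libraries 1, 2 and 3 and black bars for the mean and SD (n = 3). Ednrb and Fst lie above wild type in SmoM2, while Foxo1, Nefl and Egr1 lie near wild type in SmoM2 and below it in ShhN IUE.

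SHH promotes interneurons of the olfactory bulb, and of 22 lineage genes tested 2 were higher (Pbx3 and Tshz1, both homeobox factors), 4 were lower and 16 did not pass, with a median of -0.09. With ShhN IUE library 3 left out 5 were higher and 2 lower, and with ShhN IUE library 1 left out 1 and 1. Leaving out any 1 of the SmoM2 libraries gave 0 higher, with 1 lower for library 1 or 3 and 2 lower for library 2. Sp8 and Dlx2, transcription factors of olfactory bulb interneurons and their progenitors, differed by -0.08 (interval -0.43 to 0.27) and 0.06 (-0.22 to 0.33), and neither passed. Sp8 was at 138 to 150 CPM in SmoM2 and 121 to 191 CPM in ShhN IUE, against 15.9 to 21.3 CPM in wild type. Th, tyrosine hydroxylase, which marks the dopaminergic interneurons, had few reads, with 3, 4 and 2 counts in SmoM2, 13, 6 and 16 in ShhN IUE and 11, 10 and 5 in wild type. It was lower, with a log2 difference of -2.46 (adjusted p = 0.0134), a call lost without SmoM2 library 1 or 3. Calb2, the calretinin of mature interneurons and also of Cajal-Retzius cells, was lower by a difference of -0.88 (adjusted p = 0.0288). Its call was lost without SmoM2 library 1 or 2 or ShhN IUE library 1 or 3. Of 13 tested genes of the Cajal-Retzius list 3 were lower (Calb2, Nhlh2 and Trp73) and 0 higher, with a median of -0.34. The number lower was 0 without SmoM2 library 2 or ShhN IUE library 1. Slc32a1, the vesicular GABA transporter, was lower by a difference of -0.47 (adjusted p = 0.0135), lost without SmoM2 library 3 or ShhN IUE library 1. Tac1, the substance P precursor of striatal neurons, was at 0.447, 0.707 and 0.465 CPM in SmoM2, 0.391, 0.455 and 0.855 CPM in ShhN IUE and 17.2, 14.2 and 16.5 CPM in wild type. Both groups lay far below wild type and overlapped, with a difference of -0.06 (interval -0.87 to 0.75). Of 14 striatal projection neuron genes tested 0 were called in either direction by edgeR (median -0.00), 0 by DESeq2 or limma-voom, and 1, with SmoM2 above, had an unadjusted p under 0.05. Sst, the peptide of interneurons from the medial ganglionic eminence, was at 12.5, 13.3 and 13.2 CPM in SmoM2, 29.0, 19.9 and 23.8 CPM in ShhN IUE and 90.2, 89.1 and 52.8 CPM in wild type. It was lower, with a log2 difference of -0.90 ± 0.21 (adjusted p = 0.0163), lost when SmoM2 library 1, 2 or 3 or ShhN IUE library 1 was left out. Of 16 genes of these interneurons 4 were lower (Sst, Npy, Npas1 and Cxcr4) and 0 higher (0 by DESeq2 or limma-voom, 2 at an unadjusted p under 0.05). The number lower was 0 without SmoM2 library 1 or 3 or ShhN IUE library 1, 1 without SmoM2 library 2, and 2 with the replicate number as a block.

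Pyramidal neuron genes divided. Rasgrf2, an exchange factor of upper-layer neurons, was at 144, 149 and 164 CPM in SmoM2, 56.7, 68.2 and 86.8 CPM in ShhN IUE and 118, 119 and 119 CPM in wild type. SmoM2 lay above and ShhN IUE below wild type, and the difference was 1.11 ± 0.14 (adjusted p = 0.000989). Epha3, an axon guidance receptor of the same layers, was at 66.9, 82.8 and 67.9 CPM against 213, 198 and 137 CPM, and at 247, 189 and 173 CPM in wild type. It was lower, with a log2 difference of -1.34 ± 0.18 (adjusted p = 0.00157). Pcp4, a calmodulin regulator of deep-layer neurons, and Ctgf, a marker of the deepest layer and subplate, were lower, with log2 differences of -1.56 ± 0.25 and -1.0 ± 0.13 (adjusted p = 0.00346 and 0.00146), with ShhN IUE at 14.5 to 18.1 and 34.5 to 42.0 CPM and wild type at 13.9 to 17.2 and 35.0 to 35.9 CPM. Of 15 upper-layer genes 3 were higher and 4 lower, of 15 deep-layer genes 3 and 3, and of 16 pan-neuronal and synaptic genes 2 and 1. The number of upper-layer genes lower was 2 without any 1 of the SmoM2 libraries or ShhN IUE library 1, and that of deep-layer genes higher was 1 without SmoM2 library 1 or ShhN IUE library 1. Igf2bp2, an RNA-binding protein of young progenitors, was at 16.2, 16.3 and 16.4 CPM in SmoM2, 38.8, 28.5 and 44.6 CPM in ShhN IUE and 41.0, 37.4 and 41.2 CPM in wild type. Only SmoM2 lay apart, lower, with a log2 difference of -1.20 ± 0.15 (adjusted p = 0.00115). Pax6, Bcl11b and Zbtb20 were counted differently between the tables and were not compared.

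Several of the largest differences are of genes whose counts are uncertain. Rpl29, a ribosomal protein gene with many near-identical copies, had 3087, 2176 and 2463 counts in SmoM2 libraries and 14, 19 and 13 in ShhN IUE, and in wild-type libraries 1, 2 and 3 of the same table it had 10, 14 and 1769. Within wild type alone its counts thus ranged from 10 to 1769. Rpl26 had 166, 144 and 171 CPM against 1.72, 1.82 and 1.14 CPM (6.67 ± 0.18). Of 55 ribosomal protein genes 14 were higher and 6 lower (36.4%), of 106 genes named as pseudogenes 11 and 19 (28.3%), and 27 (54.0%) of the 50 largest called differences were ribosomal, pseudogene or predicted names. No source used here gives how reads shared between copies were assigned, and its part in these values was not tested.

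Other large differences included Myo7a and Prm1, both highest in SmoM2. Myo7a, an unconventional myosin of sensory hair cells, was at 35.7, 33.9 and 35.9 CPM in SmoM2, 2.50, 3.55 and 1.52 CPM in ShhN IUE and 2.17, 3.01 and 2.15 CPM in wild type. Only SmoM2 stood apart. Myo7a (chromosome 7, 98051060 to 98119524) was 13.9-fold higher (3.79 ± 0.26, adjusted p = 2.49e-05). Prm1, a sperm protamine, had 187, 118 and 172 counts in SmoM2, 0 in every ShhN IUE library and 4 or 5 in wild type, so that it was expressed enough to be tested only through the SmoM2 libraries. Taking 3 counts over the ShhN IUE group as the limit that a count of 0 allows, for counting error only, it was at least 108-fold higher. Whether reads of these genes came from the introduced alleles was not tested. Hfm1, a helicase of meiosis, was at 12.2, 15.0 and 15.5 CPM against 2.66, 1.91 and 1.23 CPM, with 6.84, 9.50 and 9.93 CPM in wild type (2.86 ± 0.28, adjusted p = 0.000396). Amy1, an amylase with near copies, and Tacr1, the substance P receptor, were higher, with log2 differences of 2.30 ± 0.26 and 2.28 ± 0.31, with ShhN IUE below wild type for both. Aldh1a3, a retinoic acid enzyme, was at 12.8, 7.52 and 5.40 CPM in SmoM2 against 0.626, 1.64 and 2.28 CPM (2.52 ± 0.59, adjusted p = 0.0174), a call lost without SmoM2 library 1 or ShhN IUE library 1.

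Markers of immune cells changed in 1 gene. Aif1, which encodes the microglial protein IBA1, was at 2.12, 1.16 and 2.03 CPM in SmoM2, 11.9, 7.54 and 17.2 CPM in ShhN IUE and 1.86, 2.6 and 1.66 CPM in wild type. Only ShhN IUE stood apart, with SmoM2 lower, with a log2 difference of -2.77 ± 0.36 (adjusted p = 0.00115). Of 23 microglial entries it was the 1 called: Cx3cr1 and Csf1r, receptors that define these cells, differed by 0.14 and 0.11 and did not pass. Their summed level was 358 to 425 CPM in SmoM2 and 327 to 463 CPM in ShhN IUE. Xist, the RNA of the inactive X chromosome, had 56724 counts in ShhN IUE library 2 and 31 to 39 in the other 5 libraries, so its difference of -9.71 (adjusted p = 0.0277) became -0.59 without that library, and Uty, on the Y chromosome, had 2 counts there and 349 to 569 in the others. ShhN IUE library 2 also had the highest Eomes and Foxj1 and the lowest Vegfa of its group, and the part of sex in these values was not tested. In wild-type library 3 neither gene was high, with 37 counts of Xist and 0 of Uty, so these genes do not settle the sex of every library.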

How the data were processed

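RNA of 9 cortex libraries was sequenced. The authors deposited 2 tables, ShhN IUE with wild type and SmoM2 with wild type, and per the file headers each holds a read count and an FPKM value for every gene and library. FPKM values as deposited were used only to check that gene lengths were the same in both tables (largest log2 difference 0.00379 over 12702 genes). HISAT2, StringTie, edgeR, GRCm38.p4 and mm10 are named in the submitters' processing notes, without versions, and coordinates are those deposited. No source used here says how multi-mapping reads or strand were treated.

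Wild-type counts were averaged over the tables and rounded. Of the agreeing genes 4175 had under 60 wild-type counts summed over both tables, where agreement says little. The agreeing genes held 65.5% to 66.5% of each library's counts. All 9 libraries were fitted in edgeR 4.0.16 (R 4.3.3) with TMM scaling, filterByExpr by group and the quasi-likelihood F test. P-values were adjusted over all 12349 tested genes by Benjamini and Hochberg, and a gene was called under 0.05. SE is the log2 difference divided by the square root of F, and intervals are at 95%. Pairs of replicates differed beyond counting noise (chi-square of 11.6 to 31.4 per degree of freedom), so each counted as 1 sample. The fitting code was tested on simulated counts.

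The members, the gene lists and the tests were chosen with earlier results of these data known. Genes named are the 12 largest rises and 12 largest falls among called genes with at least 5 CPM in the higher group, no overlap and a gene name that is not predicted, mitochondrial or a pseudogene. Up to 5 members of each list and a fixed set are also named, of which some are not reported here. Other members, such as Evc2, Cyr61, Mcidas, Th, Egln3, Slc2a3, Eno1, Cx3cr1, Csf1r, Col1a1 and Aldh1a2, were chosen after their values were seen. Promoter windows are from RefSeq on GRCm38.p6.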

Additional observations from a re-analysis of the deposited data

Results flagged for a closer look

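For 5 of the named genes every SmoM2 library lay on one side of all wild-type libraries and every ShhN IUE library on the other side. Both groups were set against the same wild-type libraries, and this choice of genes fixes that the groups do not overlap, so their difference is given as a description, with no test. The same pattern held for 118 (0.956%) of the 12349 tested genes, 76 of them with SmoM2 above and 42 with SmoM2 below wild type, while the groups did not overlap for 41.0%. Adm (log2 difference, SmoM2 minus ShhN IUE, -2.95) and Vegfa (-1.99) lay below wild type in SmoM2 and above it in ShhN IUE. For Vegfa the gap between SmoM2 and wild type was narrow, at 76.6 against 77.6 CPM for the nearest libraries. Rasgrf2 (1.11), Hfm1 (2.86) and Prm1 (10.02) lay above wild type in SmoM2 and below it in ShhN IUE. Against wild type the SmoM2 difference passed the test for neither Adm, Vegfa, Rasgrf2 nor Hfm1 (edgeR adjusted p = 0.202, 0.555, 0.084 and 0.0721). The value of Prm1 is no bound, since all ShhN IUE libraries were at 0 counts, and wild type had 4 or 5 counts a library.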

How the results depend on the processing

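The number of genes called depends on the libraries and on the choice of genes. Of 2040 calls, 1043 were higher and 997 lower. Without the restriction to agreeing wild-type counts these were 3457, 1742 and 1715, and against a 2-fold minimum 40, 26 and 14. Leaving out each library in turn gave 834 to 2336 calls, 483 to 1259 higher and 351 to 1080 lower. The fewest came without SmoM2 library 2 (834), 3 (960) or 1 (1120) or ShhN IUE library 1 (936). With the replicate number as a block, 1499 genes were called, 802 higher and 697 lower. Same-numbered SmoM2 and ShhN IUE libraries did not deviate together (r = -0.139, 0.0945 and 0.00767 across genes), and not every library correlated best with its own number. For same-numbered ShhN IUE and wild-type libraries r was 0.31, -0.35 and -0.0526. Deviations of 3 libraries a group cannot tell whether same-numbered libraries shared a litter or batch. DESeq2 called 2540 genes, limma-voom 2121 and a fit without wild type 2468, and the rest 1735 to 2426. No filter gave 57.0% of calls higher, against 51.1%. Of 120 named genes that were called, 48 kept the call in every alternative other than the 2-fold minimum, 72 lost it at least once, and 0 changed direction. Of 23 list counts of 3 or more members, 21 changed by over 1.5 times when some single library was left out. Of the agreeing genes 3846 were too low to test at this depth. ShhN IUE, shallower than SmoM2, also varied more than SmoM2, and about as much as wild type.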
